A study of Homo sapiens with 4 samples.

Results

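The genes of nuclear transport, namely nucleoporins, importins, exportins, the Ran cycle and the mRNA export receptor NXF1, were described in MDA-MB-231 cells. Members were chosen by gene symbol among the protein_coding rows of the authors' transcript table: names that begin with NUP, KPNA, IPO, TNPO or XPO followed by a number (also NUPL and XPOT), and KPNB1, CSE1L, RAN, RANBP1, RANBP2, RANGAP1, RCC1, TPR, NDC1, POM121 and NXF1. This gave 54 genes of 12120 gene symbols with a protein_coding row, and 142 of 26348 protein_coding transcripts. The table lists 43596 transcripts of every type.

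MDA-MB-231 is an established line of human breast cancer cells of the triple-negative type. It was grown in DMEM with serum and treated for 24 h with DMSO, the solvent, or with 10 µM KH-3, a small molecule that was studied as an inhibitor of the RNA-binding protein HuR. RNA-seq was done on 2 biological replicates in each of the 2 groups, none with a genetic change named in the labels. The series as a whole asked how KH-3 changes the mRNAs of these cells.

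The only measurement used here is the authors' mean normalized read count of each transcript, which is 1 value over libraries with no replicate values. The sources do not say which libraries were averaged, and a further KH-3 dose is mentioned in the methods. No level below therefore belongs to DMSO or to KH-3, no error can be given, the sequencing depth is unknown, and no treatment comparison or test was made. The order of genes with close levels cannot be judged for the same reason. The level of a gene is the sum over its protein_coding transcripts of the mean normalized read count divided by the transcript length in kb, and is given as reads per kb. A percentile is the share of the 12120 genes with a level at or below that of the gene.

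The nuclear pore is a ring of nucleoporins set in the nuclear envelope, with scaffold rings, a channel filled by phenylalanine-glycine repeats, filaments on the cytoplasmic face and a basket on the nuclear face. Importins bind cargo in the cytoplasm and release it in the nucleus when they meet Ran bound to GTP, and exportins bind cargo together with Ran-GTP and release it in the cytoplasm. HuR, the product of ELAVL1, is mostly nuclear and shuttles through the pore, and binding by transportins and, through the adaptors ANP32A and ANP32B, by XPO1 has been described for it.

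The cell line was checked against its markers. The mesenchymal and basal genes VIM, CD44, EGFR, CAV1, MSN and ANXA1 all had a row, 6 of 6, with percentiles from 82.0 for CD44 to 99.5 for ANXA1. Of 7 luminal or epithelial genes, 4 had a row. ERBB2, GATA3 and EPCAM stood at percentiles 18.9, 21.8 and 27.9, whereas the keratin gene KRT8 stood at 76.8, which goes against the list. ESR1, PGR and CDH1 have no protein_coding row in the table.

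HuR binds AU-rich elements in 3′UTRs, so 6 short 3′UTR windows are shown. They cover receptors tied to HuR shuttling in the literature or acting in general import and mRNA export, and the GTPase RAN. Each comes from hg38 and the 3′UTR that GENCODE release 44 gives to the protein_coding transcript with most reads. Each is printed 5′ to 3′ on the strand of the gene, with the first TATTTAT, or where there is none the first ATTTA, in capitals, and 9 bases on either side. XPO1 has the heptamer and the other genes the pentamer. The set was chosen and is not complete. KPNA2, an importin alpha outside it, has 0 pentamers in the 258-base 3′UTR of its transcript with most reads. For NXF1 the transcript is NXF1-006, with 1068 coding bases. The forms NXF1-201 and NXF1-001, with 1857 coding bases, have 3′UTRs of 346 and 305 bases without the pentamer.
XPO1: ggttaaaaaTATTTATcctgttaga
TNPO1: ttttttttaATTTAaagtttttt
TNPO2: aaaaaaactATTTAattttttaa
KPNB1: gagttacttATTTAaaaaaaaag
RAN: gacctgcatATTTAgctgttttg
NXF1: tactatgcaATTTAcgactctgg
The windows are at chr2:61478077-61478101 (minus strand) for XPO1, chr5:72909128-72909150 (plus) for TNPO1, chr19:12699440-12699462 (minus) for TNPO2, chr17:47682668-47682690 (plus) for KPNB1, chr12:130876118-130876140 (plus) for RAN and chr11:62796544-62796566 (minus) for NXF1. A match to these letters is a description of the sequence and was not tested as a HuR site.

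The transport genes lay high among the expressed genes. Their median level was 419.7 reads per kb, compared with 117.2 for all 12120 genes, whose middle 50% ran from 36.6 to 306.1. Of the 54 genes, 48 (88.9%) were above the median gene, 37 (68.5%) were above the 75th percentile and 11 (20.4%) were above the 90th. The genes below the median were KPNA1, NUP214, KPNA5, NUP62CL, NUP85 and KPNA7. With all transcript types counted, KPNA1 was above it, with 327 reads per kb at percentile 70.6, while IPO13 and XPO4 were below it. Together the 54 genes made up 0.446% of the genes and held 0.656% of the summed protein_coding level. The spread within the group was wide: RAN was 309-fold above KPNA7, whose level rests on 19.8 reads. The 5 highest genes, RAN, KPNA2, KPNB1, CSE1L and RANGAP1, held 36.6% of the total of the group. The lowest mean listed for any transcript was 7.34 reads, and how other transcripts were left out is not known here. The group thus holds only listed genes, and so do the 12120 genes it is set against. A missing row cannot be read as a low level.

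**Figure D1:**
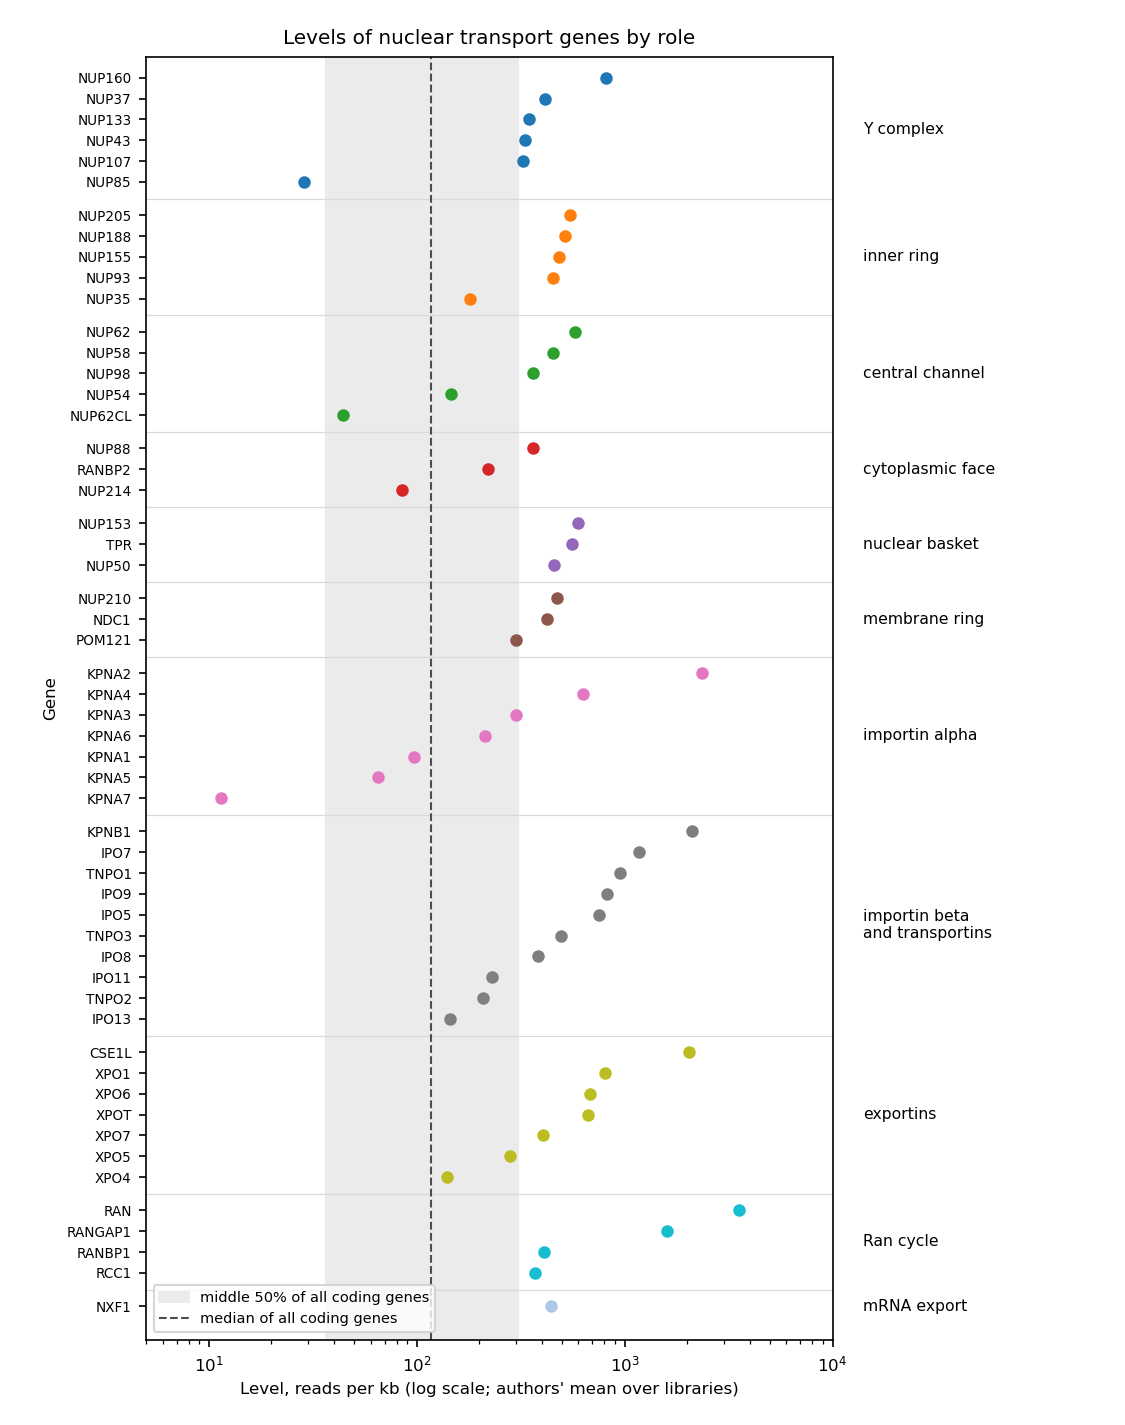
Level of each of the 54 nuclear transport genes (reads per kb, logarithmic axis) by role, 1 point per gene, with the median of all 12120 genes as a dashed line and their middle 50% as a grey band. RAN, KPNA2, KPNB1, CSE1L and RANGAP1 are the highest points, and the importin alpha group runs from KPNA7 at 11.5 to KPNA2 at 2345. No error bars are drawn because the table has 1 mean per transcript.

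The Ran cycle sets the direction of transport, and its 4 genes had the highest median of the roles with more than 1 gene, 1002 reads per kb. RAN, the small GTPase itself (chromosome 12, 130872037 to 130877678, plus strand), had the highest level of the whole group, 3544 reads per kb at percentile 99.0. RANGAP1, the GTPase-activating protein on the cytoplasmic side, reached 1595. RANBP1, its co-activator, was at 409 and RCC1, the exchange factor on chromatin, at 372. The level of RAN rests largely on RAN-012, a transcript of 572 bases with a coding part of 159 bases in release 44, which had 3012 reads per kb from 1723 reads. The full coding forms RAN-001 and RAN-003, each with 648 coding bases, had 433 and 75.8. Short transcripts gain from division by length, and processed pseudogenes of RAN can share its reads, so the value is less certain than those of long genes.

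The importin beta family and the transportins carry cargo directly or with an adaptor. All 10 genes listed were above the median gene, with a median of 623 reads per kb, and they held 22.8% of the total of the group. IPO13 was at percentile 47.7 with all transcript types, and TNPO2 at 49.2 with only the protein_coding transcript of most reads, so that in these settings not all 10 were above. KPNB1, the importin that carries cargo bound to importin alpha (chromosome 17, 47649476 to 47685505, plus strand), led with 2100 reads per kb. IPO7 followed with 1174 and TNPO1, the transportin that recognizes PY signals, with 948 (chromosome 5, 72816312 to 72916733, plus strand). The other members with values between those and the lowest were IPO9, IPO5, TNPO3, IPO8 and IPO11, from 826 down to 230. The lowest were TNPO2, the close relative of TNPO1, with 209 at percentile 65.8 (chromosome 19, 12699201 to 12724011, minus strand), and IPO13 with 144. TNPO1 was thus above TNPO2 on the same per-length scale. With only the protein_coding transcript of most reads counted for each gene, the levels were 285 and 80.3, and that of IPO9, which has a high short form, was 293.

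Importin alphas are the adaptors that read the classical nuclear localization signal, and they spread most within a role, 204-fold. KPNA2 (chromosome 17, 68035636 to 68047364, plus strand), an importin alpha that is abundant in dividing cells, had 2345 reads per kb, rank 238 of all genes. KPNA4 came next with 632 and KPNA3 with 302. KPNA6 had 212 reads per kb and KPNA1 had 97.6. KPNA5 was at 65.1. KPNA7, known for its expression in the egg and early embryo, was at 11.5. That value rests on 19.8 reads in 1 row, and it sets the 204-fold spread. For KPNA4 the level depends on KPNA4-003, a transcript of 510 bases, and the long form KPNA4-001 alone had 222.

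All 7 exportin genes listed were above the median gene, with a median of 667 reads per kb, but XPO4 was at percentile 46.9 with all transcript types. CSE1L, which returns importin alpha to the cytoplasm (chromosome 20, 49046246 to 49096960, plus strand), was the highest at 2042. XPO1, the receptor for leucine-rich export signals (chromosome 2, 61476032 to 61538741, minus strand), had 806 at percentile 91.4. XPO6, which exports actin with profilin, had 684 and XPOT, the tRNA exportin, had 667. XPO7 was at 407. The lowest were XPO5, which exports precursor microRNAs, with 282, and XPO4 with 140.

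The 25 nucleoporins held 29.9% of the total of the group, and 22 of them were above the median gene and 18 above the 75th percentile. The 24 importins and exportins held 50.1%, with 21 above the median gene and 14 above the 75th percentile. In the Y complex, the outer scaffold, NUP160 was the highest with 811 reads per kb. NUP37, NUP133, NUP43 and NUP107 lay between 416 and 323. NUP85, the lowest gene placed in this role, had 28.7. Protein was not measured.

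In the inner ring, the scaffold that anchors the channel, NUP205, NUP188, NUP155 and NUP93 lay between 546 and 452 reads per kb, and NUP35 had 181. In the central channel, NUP62 had 576, NUP58 had 451 and NUP98 had 363. Roles were assigned by gene, so the whole level of NUP98 is counted here although its forms differ in coding length. NUP98-001, with 5400 coding bases, had 185 reads per kb, and NUP98-004, with 2811, had 39.4. NUP54, which binds NUP62 and NUP58, had 146, and the NUP62-like gene NUP62CL had 44.3. The nuclear basket was the most even role, 1.30-fold from NUP50 at 459 through TPR at 561 to NUP153 at 597. On the cytoplasmic face, NUP88 had 364, RANBP2, the SUMO ligase of the filaments, had 221 and NUP214 had 85.3. The membrane ring genes NUP210, NDC1 and POM121 had 470, 423 and 299. POM121 with POM121C, and RANBP2 with its RGPD copies, are near-identical in part, so reads could have been divided between them.

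NXF1, the receptor for bulk mRNA export (chromosome 11, 62792123 to 62806302, minus strand), had 440.2 reads per kb at percentile 82.6. Of 26 further genes of nuclear transport and mRNA export that the name rule does not take, 25 had a protein_coding row, 17 of them above the median gene. NUTF2, the import factor of Ran, had 1751 and ALYREF, the adaptor of NXF1, had 1392. The Y complex subunit SEH1L had 1069, and RANBP17 was at the low end with 3.46. ELAVL1, the gene of HuR, had 966 reads per kb at percentile 93.2. Of this, 77.4% lay in ELAVL1-002, a form of 1473 bases, and with only the transcript of most reads the level was 219 at percentile 74.7. Of the export adaptors of HuR, ANP32B had 2156 at percentile 97.7 and ANP32A had 221 at percentile 67.3. Rows that are not protein_coding held 85.9% of the level of ANP32A, and with all transcript types the levels were 1563 for ANP32A and 2334 for ANP32B.

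A gene's reads are split among transcripts. The 54 genes had 212 rows, of which 142 were protein_coding, 41 retained_intron, 16 processed_transcript and 13 nonsense_mediated_decay. The protein_coding rows held 79.2% of the summed level of these rows, compared with 80.1% over all genes. The retained_intron rows, which lay in 25 of the genes, held 11.2% of the level, compared with 8.98% over all genes. In 21 genes (38.9%) no row of another type was listed, and the same held for 47.0% of all genes. The median gene of the group had 5.46% of its level in rows of other types, compared with 2.77% over all genes, but only 1.33% when reads were not divided by length.

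In 5 members (9.26%), and in 13.3% of all genes, over 50% of the level lay in rows that are not protein_coding. By reads not divided by length this held for 3 members, NUP88, KPNA1 and NUP85, and for 9.46% of all genes, and the shares of KPNA2 and NUP107 were 25.7% and 33.4%. NUP88 led with 80.0%, all of it retained_intron. Its row NUP88-012, 434 bases long, had 770 reads per kb, more than the 364 of the protein_coding forms together. KPNA1 had 70.2%, from the processed transcripts KPNA1-005 with 181 reads per kb and KPNA1-004 with 49.2. NUP85 had 67.8%, with NUP85-015, a processed transcript, at 42.0. With every transcript type counted, NUP85 was at 88.9 instead of 28.7 reads per kb, and still below the other Y complex genes. KPNA2 had 58.2%, with 28.7% of its level in KPNA2-005, a nonsense_mediated_decay row of 611 bases, and 21.1% in the retained_intron row KPNA2-006. NUP107 had 51.5%, mostly in the nonsense_mediated_decay rows NUP107-010 and NUP107-002.

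**Figure D2:**
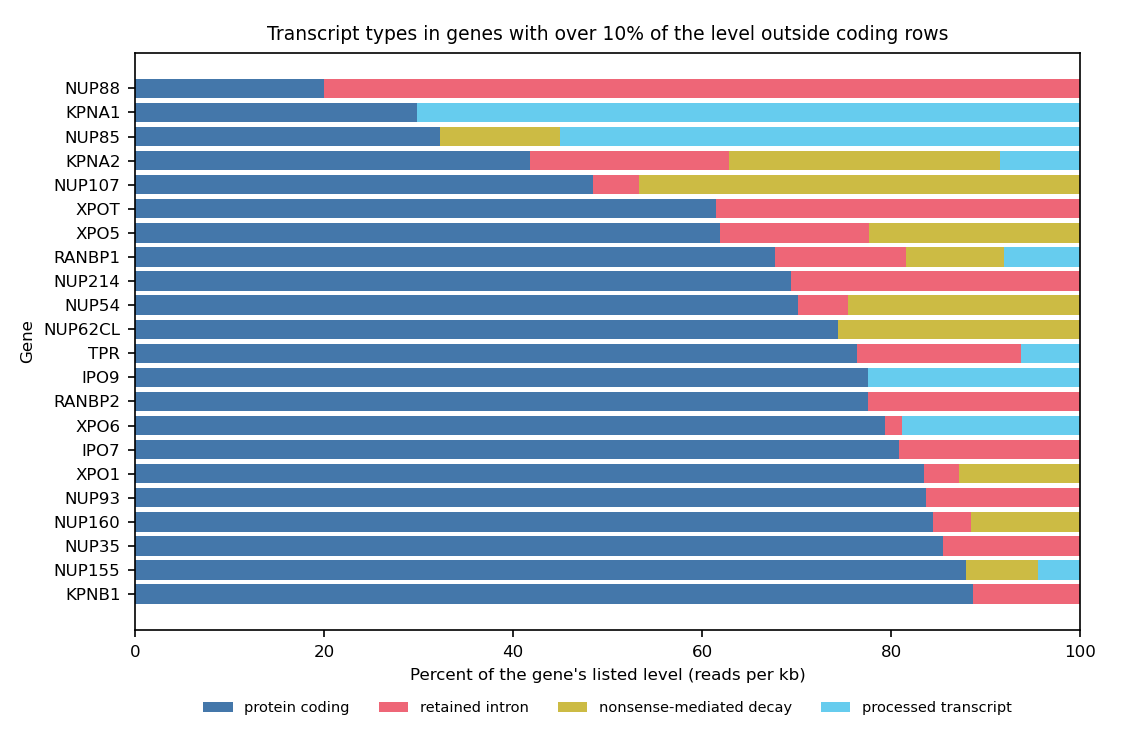
Share of each gene's level (percent of reads per kb over all its rows) by transcript type, for the 22 members with over 10% of the level outside protein_coding rows, 1 bar per gene. NUP88, KPNA1, NUP85, KPNA2 and NUP107 have over 50% of their level outside protein_coding rows.

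Among the protein_coding forms, 15 members had a single row, 39 had several, and no member had more than 6. In 25 members (46.3%) 1 form held at least 90% of the gene's protein_coding level, a share close to the 45.4% of all genes. In 23 members more than 1 form held over 10%. The 5 members with the smallest main form were TNPO1 with 31.6%, NXF1 with 36.2%, IPO5 with 37.4%, TNPO2 with 38.4% and KPNB1 with 43.7%. By reads not divided by length the 5 were IPO5 with 47.9%, NUP155 with 51.15%, TNPO2 with 52.3%, RAN with 56.5% and NUP58 with 57.4%. XPO1 was at the other end, with 752 of its 806 reads per kb in XPO1-001. The division of reads between overlapping forms is an estimate made by the authors' software, and no error of it is given.

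In NXF1, the leading rows were NXF1-004 with 159.5 reads per kb, NXF1-006 with 124.7 and NXF1-013 with 122.3. The forms NXF1-201 and NXF1-001, which carry the 1857-base coding sequence, had 28.3 and 5.42. NXF1-006 took the most reads, 514.9, and has 1068 coding bases and a 3′UTR of 2943 bases in release 44. In IPO5, the forms IPO5-001, IPO5-002 and IPO5-004 had 282, 235 and 184 reads per kb with coding parts of 3345, 3291 and 3296 bases. Their 3′UTRs had 2473, 667 and 206 bases. IPO5-001 and IPO5-002 thus differ mainly outside the coding sequence. IPO5-004 has no complete start of the coding sequence in release 44, so its coding part cannot be compared.

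The main forms of the 54 members had a median 3′UTR of 1248 bases in release 44, compared with 1157 bases over 11444 genes that could be matched. Their A+T share was 62.5%, compared with 58.3%. The pentamer ATTTA, searched on the transcript strand with overlaps counted, was present in 38 of 54 members (70.4%). The share was 71.2% over the matched genes, and 69.5% when those genes were weighted to the members' deciles of 3′UTR length. The median density was 1.68 per kb in both. The heptamer TATTTAT, each copy of which also holds the pentamer, was present in 16 members (29.6%), compared with 33.5% of the genes. For the transcript with most reads, 43 of 54 members (79.6%) held the pentamer, compared with 72.9% of genes and 77.4% at like length. The median density was then 2.01 per kb in members and 1.73 over genes, without weighting by length. By presence of these letters the members thus lay near the other expressed genes of the same 3′UTR length. Release 44 is later than the release the authors used, and 10 main forms differ in length by more than 5% between the table and release 44. KPNA4-003 has 510 bases in the table and 1854 in release 44, and NUP93-001 has 2741 and 8234. Pentamers counted in such forms may lie outside the quantified sequence.

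**Figure D3:**
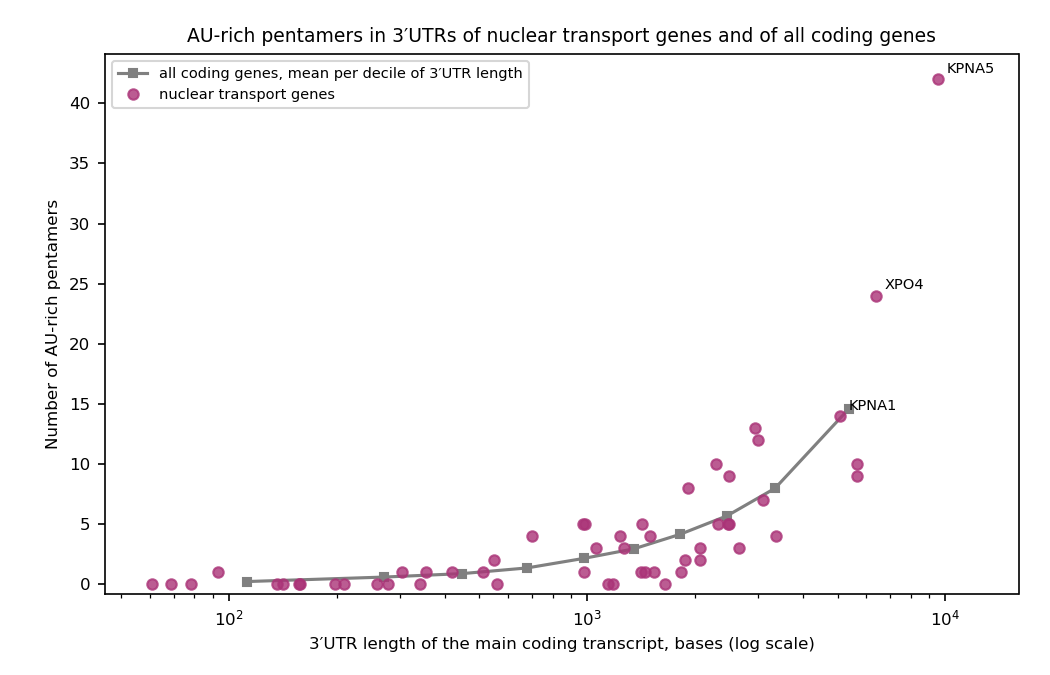
Number of AU-rich pentamers against 3′UTR length (bases, logarithmic axis) for the main form of each of the 54 members, 1 point per gene, with the mean over all matched genes by decile of length as a line. The high counts are at the long 3′UTRs, with 42 in KPNA5 and 24 in XPO4.

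The number of copies differed widely among the members and was highest in long 3′UTRs, here counted in the transcript with most reads. KPNA5 had the most, 42 pentamers and 8 heptamers in 9544 bases. TNPO1-001, whose length also differs between the table (11183 bases) and release 44 (8489), had 25 in 5715 bases and XPO4-001 had 24 in 6393 bases. IPO7-001 had 13 in 2933 bases, XPOT-001 had 12 in 2994 bases and IPO9-001 had 12 in 8237 bases. The importin alphas divided by this measure. KPNA1, KPNA3, KPNA4, KPNA5 and KPNA6 had 3′UTRs of 2480 to 9544 bases with 9 to 42 pentamers, whereas KPNA2, the highest in level, had 258 bases and 0 pentamers, and KPNA7, the lowest, had 136 bases and 0. KPNA2-001 has 2181 bases in the table and 1977 in release 44, so its listed sequence was not searched in full. XPO1-001 had 5 pentamers in 971 bases, a density of 5.15 per kb. The members without a pentamer in this transcript included NUP133, NUP98, NUP214, NUP205 and IPO13. Other forms of NUP98 have it, and they held 18.5% of the level of that gene.

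In several receptors the protein_coding forms differ in 3′UTR length, so that the pentamers are present in part of the level. Some of the short forms are incomplete, with no complete start of the coding sequence in release 44. Among them are KPNB1-004, TNPO1-014, TNPO2-017, NXF1-013, IPO5-004 and IPO9-003, and short forms gain from division by length. Of the level in forms with a 3′UTR in release 44, all lay in forms with the pentamer in 27 members, none in 8, and part in 19. Forms without such a 3′UTR are left out of these counts, and XPO4, POM121 and XPOT among the 27 had 101 of 139.8, 227.5 of 299.1 and 562 of 667 reads per kb in forms with one. In 23 members the longest 3′UTR was at least 2 times the shortest. These counts use the 3′UTRs of release 44, which for some forms exceed the quantified sequence. NUP88-004 was quantified at 2194 bases, but has 2271 coding bases and a 3′UTR of 1422 bases in release 44. NUP93-001 was quantified at 2741 bases, but has a 3′UTR of 5677 bases there. Pentamers counted in such forms may lie outside the quantified sequence. In KPNB1, KPNB1-001 has a 3′UTR of 3101 bases with 7 pentamers and had 917 reads per kb. KPNB1-003 and KPNB1-004, each with 276 bases, had 664 and 515, so that 43.7% of the level lay in forms with the pentamer. The first pentamer of KPNB1-001 starts at base 273 of its 3′UTR, so KPNB1-003 and KPNB1-004 end within it. Their lack of a pentamer thus rests on where the annotation stops. In TNPO1, TNPO1-001 with 5715 bases had 285 reads per kb, while TNPO1-006 with 278 bases had 300, TNPO1-014 with 170 bases had 225 and TNPO1-013 with 19 bases had 139. As a share of the whole level of the gene, forms with the pentamer held 30.1% in TNPO1, 28.3% in NXF1 and 62.5% in TNPO2. For XPO1 they held 97.5% and for RAN 100%, where RAN-012 has 1 pentamer in 355 bases and RAN-001 has 6 in 1752. By reads not divided by length the shares were higher in genes with a single such form. TNPO1-001 held 68.9% of the protein_coding reads of TNPO1, NXF1-006 61.6% of those of NXF1 and KPNB1-001 63.7% of those of KPNB1.

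**Figure D4:**
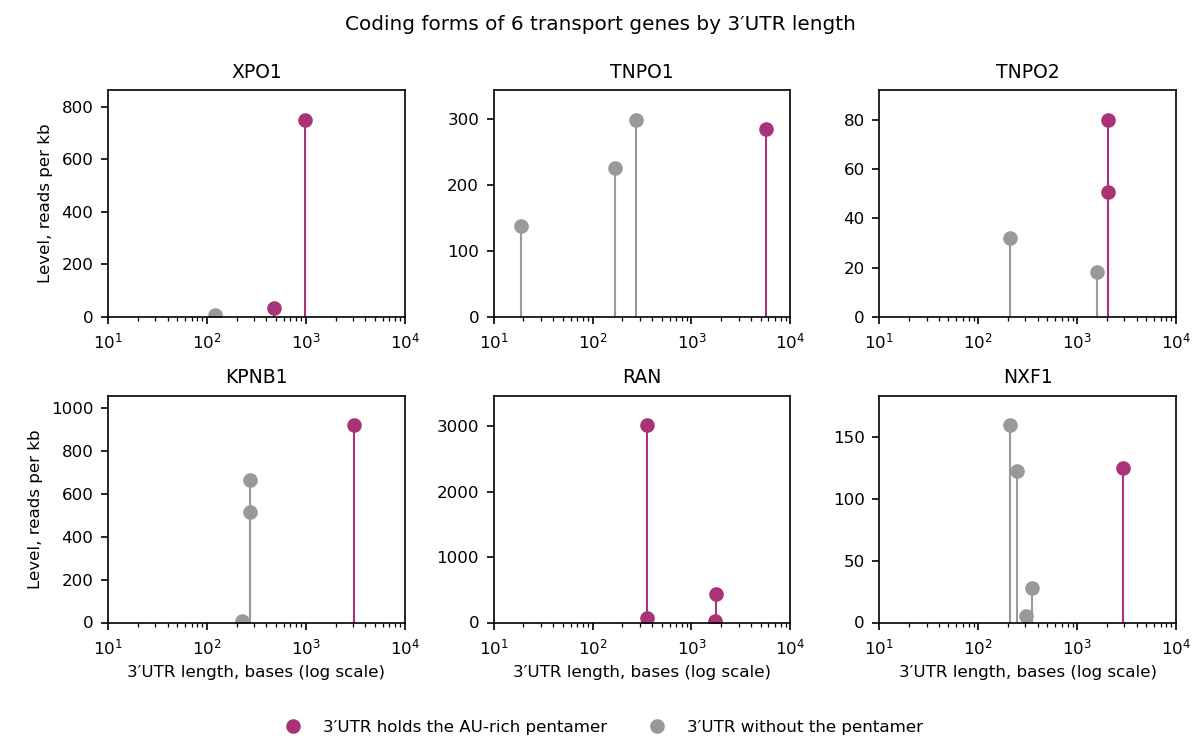
Protein_coding forms of XPO1, TNPO1, TNPO2, KPNB1, RAN and NXF1 by 3′UTR length (bases, logarithmic axis) and level (reads per kb), 1 point per form with an annotated 3′UTR, purple where the AU-rich pentamer is present and grey where it is not. KPNB1 and TNPO1 have short forms without the pentamer beside 1 long form with 7 and 25 pentamers.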

How the data were processed

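The authors prepared mRNA libraries with a TruSeq kit, mapped reads with STAR (default parameters) to GENCODE release 24 transcripts, estimated reads per transcript with eXpress and ran DESeq2. The build per the labels is hg38. Tool versions, and whether counting used strand, are not given in the sources used here. The deposited mean normalized read count is a signal, the authors' mean over libraries after their normalization. The deposited table also holds the authors' own comparison of KH-3 with DMSO (log2 fold change, p-value and q-value), which were not used here.

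Mean normalized read counts of protein_coding rows were divided by transcript length and summed per gene symbol. Reference sequence was hg38 with GENCODE release 44, where 140 of the 142 protein_coding rows of members were found by transcript ID, 80 with equal length. Named were all members of roles of up to 6 genes, and otherwise the 3 highest and 2 lowest. Also named were the 6 genes with a 3′UTR window, ELAVL1, ANP32A, ANP32B and all importin alphas. The 5 members with the largest share outside protein_coding rows, and the 5 with the smallest main form, were named too. The intermediate members of larger roles, and members named for their 3′UTR, were added after their values were seen. The members and lists were chosen with earlier results of these data known. The computations were tested on simulated data. Python 3.11.15, numpy 2.4.6, pandas 2.3.3 and matplotlib 3.10.9 were used.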

Additional observations from a re-analysis of the deposited data

How the results depend on the processing

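No error could be set on any level, so a value or count is called stable here when it moved by at most 1.5 times. The median level of members was 419.7 reads per kb, 477.1 with effective length (length less 200 bases, at least 100), 476.6 with all transcript types and 306.4 with the coding transcript of most reads only. The number above the median gene was 48, and in these alternatives 48, 47 and 48, and 44 among genes with at least 100 reads. The genes were not the same: with all types KPNA1 passed and IPO13 and XPO4 did not, and with the coding transcript of most reads KPNA1 passed and TNPO2 did not. Counting all types moved 7 single levels by over 1.5 times, NUP88 most, from 364 to 1821, and the coding transcript with most reads alone moved 13. The number of members with 1 form of at least 90% was 25, 30 by reads and 37 at a threshold of 75%.

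The median share outside protein_coding rows was 5.46% by level and 1.33% by reads. The number of members with the pentamer was 38, 16 for the heptamer, and 6 of the 14 whose main form has equal length in both releases (42.9%, against 62.9% of genes and 36.8% at like length). In alternatives chosen after seeing the data it was 43 for the transcript with most reads, and 30 of 44 for lengths within 5% (68.2%, against 70.7%). A count of repeats in protein sequence was planned and not run. No paired analysis was possible because the values used are 1 mean per transcript, and no replicate could be left out.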

Other observations

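Some symbols of the same families had rows of other types only. NUPL2 was listed with 3 retained_intron rows of 15.2 to 56.9 reads, and NUP50-AS1, by its name an antisense gene of NUP50, with 3 lincRNA rows of 9.95 to 230.2 reads. The pseudogene KPNA2P3 had 11.9 reads and IPO5P1 had 37.3. THOC1, a subunit of the THO complex in mRNA export, was listed with retained_intron rows only.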
